A study of Mus musculus with 24 samples.

Results

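Hemoglobin is built from alpha- and beta-globin chains that carry heme, and red cell precursors make the chains and the heme in step. The transcription factors GATA1 and KLF1 switch on the globin genes in these precursors, the erythropoietin receptor EPOR carries the survival signal, and ALAS2 performs the first reaction of heme synthesis in erythroid cells. Carbonic anhydrases 1 and 2, which convert carbon dioxide and water to bicarbonate, are also abundant in red cells, although carbonic anhydrase 2 is made in several other cell types.

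A set of 10 genes was followed, out of 20867 genes in the tables. It held the adult beta-globins Hbb-bt and Hbb-bs, the adult alpha-globins Hba-a1 and Hba-a2, the transcription factors Gata1 and Klf1, the receptor Epor, the carbonic anhydrases Car1 and Car2, and Alas2. They were selected by symbol, and the choice was made with earlier results on their abundance in the same libraries known. Their abundance in mutant against control cells is therefore given as a description, with no test. Of the 10 genes, 7 had at least 1 read in some library, and 3 (Epor, Car1 and Alas2) had no read in any library.

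RNA stability was measured by thiol-linked alkylation sequencing of labelled RNA (SLAM-seq), which reads 4-thiouridine (4SU) incorporated into new RNA as C in place of T. The cells were preleukemic cells made from c-Kit-enriched mid-gestation fetal liver of C57BL/6 mice by retroviral Meis1 and Hoxa9, replated serially and cultured with stem cell factor, IL-6 and IL-3. Erythropoietin is not named among the additions to the medium. The cDKO cells were homozygous for floxed alleles of both Tut4 and Tut7 (fl/fl), carried the Vav-iCre transgene, whose Cre acts in hematopoietic cells, and lacked the terminal uridylyl transferases TUT4 and TUT7, which add uridines to RNA 3′ ends. The labels call the other genotype only control, and the methods describe control animals with the same floxed alleles and no Vav-iCre. All cells of both genotypes carried the Meis1 and Hoxa9 viruses, were labelled with 2.9 µM 4SU for 12 h and were collected 0, 60, 180 or 540 min after 4SU was removed (the chase). There were 3 replicates of each genotype at each time, 24 libraries in all. The methods call them biological triplicates, and nothing in the labels says whether libraries of one number at different times came from one culture.

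Reads within 3′ untranslated regions (UTRs) numbered 4380235 to 7041311 per library. Abundance is given as CPM, read counts scaled to the same total for each library. Tut4 stood at 68.1 to 105 CPM in the 12 control libraries and at 17.8 to 40.0 CPM in the 12 cDKO libraries, and Tut7 at 34.6 to 66.1 and 16.7 to 33.3 CPM, though these 3′UTR reads need not lie in the deleted exons. Library-wide T-to-C conversion at 0 min stood at 1.64 ± 0.0261% for control libraries and 0.736 ± 0.169% for cDKO libraries (SD, n = 3). Replicate 3 of cDKO stood apart, at 0.542% against 0.821% and 0.845% in replicates 1 and 2. Genes of chromosome 3, on which Car2 lies, had a median log2 difference of -0.51 at 0 min, against 0.02 for all other genes. The libraries hold no molecular identifiers, so intervals on read or conversion counts cover counting error only. They do not cover the spread between replicates.

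The 10 genes did not behave as an erythroid set. One beta-globin, Hbb-bt, reached 1300.2 to 2075 CPM in cDKO, and Car2 reached 33.5 to 236 CPM. The alpha-globins reached 9.97 CPM at most, and the other 6 genes had at most 16 reads in any library. Of 14 erythroid marker genes, which include 8 of the set, 13 were in the tables. Their sum without Hbb-bt was 0 to 2.96 CPM in control and 1.05 to 15.1 CPM in cDKO. Of these 12 markers 9 had under 20 reads over all 24 libraries. The set is therefore described below by its genes and not as a cell type.

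**Figure D1:**
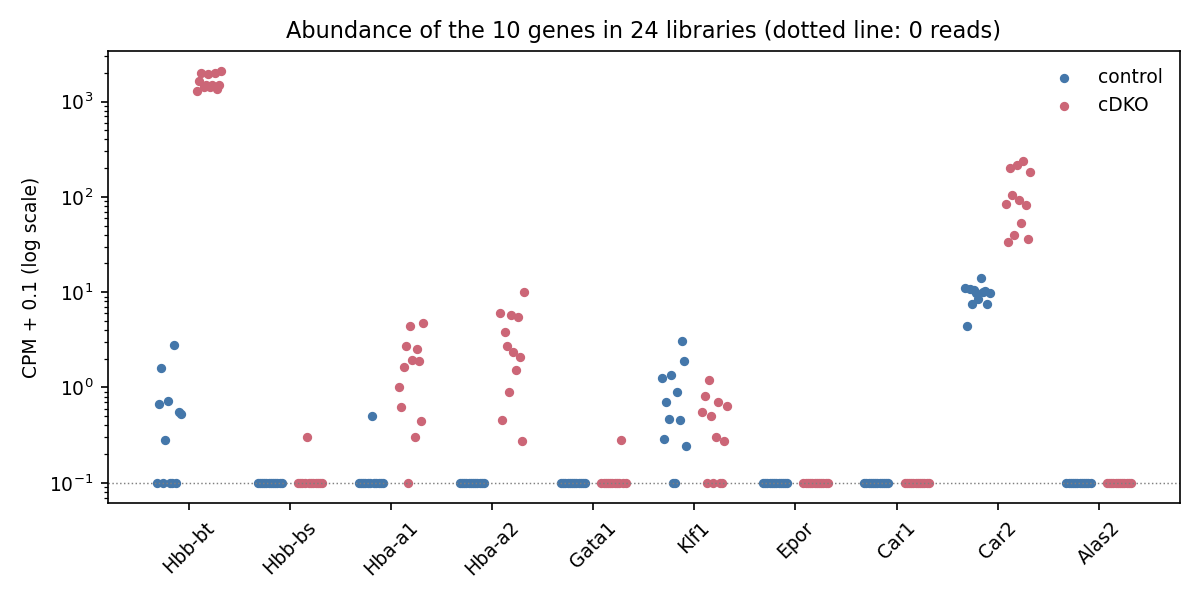
Abundance of the 10 genes in the 24 libraries, as CPM + 0.1 on a log scale, with 1 point per library, control in blue and cDKO in red. Hbb-bt and Car2 stand higher in all 12 cDKO libraries than in any control library, while Epor, Car1 and Alas2 lie on the line of 0 reads throughout.

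The beta-globins carried the signal. Hbb-bt encodes an adult beta chain and was read over its 3′UTR interval at chr7:103812524-103812655 (mm10, minus strand). Its neighbour Hbb-bs, the other adult beta-globin gene of the set, was read over chr7:103826523-103826664. Hbb-bt had 0, 3 and 10 reads in the control libraries of replicates 1, 2 and 3 at 0 min, and 5695, 9327 and 9040 reads in those of cDKO. These were 1300.2, 1646 and 1981 CPM in cDKO. The lowest of all 12 cDKO libraries held 5695 reads of Hbb-bt and the highest control library held 15.

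At 60 min the control libraries held 0, 1 and 3 reads of Hbb-bt, and the cDKO libraries 1414, 1478 and 1935 CPM. At 180 min control held 0, 0 and 15 reads and cDKO 1419, 1476 and 2001 CPM. At 540 min control held 0, 3 and 3 reads and cDKO 1360.1, 1476 and 2075 CPM. The groups did not overlap at any time, and all reads of control came from replicates 2 and 3 (7 and 31 reads over the 4 times). Pooled over the 3 libraries of a group, the ratio of cDKO to control was 2164 at 0 min (exact 95% interval 1265 to 4064), 6393 (2497 to 23466) at 60 min, 1703 (1032 to 3043) at 180 min and 5231 (2403 to 14255) at 540 min. The width of these intervals came from the 4 to 15 control reads per time. By reads, Hbb-bt ranked between 30 and 71 among all genes of each cDKO library and took 0.130 to 0.208% of its reads. In bulk RNA, more cells with Hbb-bt and more Hbb-bt RNA per cell cannot be told apart.

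Hbb-bs had no read in control and 1 read in the 12 cDKO libraries, in replicate 2 at 60 min. A total of 3 reads, the limit that a count of 0 allows, would have been 0.0444 CPM over the 12 control libraries and 0.0488 CPM over those of cDKO. Both beta-globin genes therefore lay at opposite ends of the range within the same cDKO libraries. Of the 100642 Hbb-bt reads in cDKO only 198 were multimapping (0.197%, exact 95% interval 0.170 to 0.226), so its reads were placed at a single locus by the authors' mapping.

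The alpha-globins were present at a low level in cDKO. Hba-a1 (chr11:32284392-32284486, plus strand) and Hba-a2 (chr11:32297209-32297310, plus strand) encode near-identical alpha chains. At 0 min the reads in replicates 1, 2 and 3 of cDKO were 4, 3 and 7 for Hba-a1 and 26, 2 and 17 for Hba-a2. At 540 min they were 10, 2 and 26 for Hba-a1 and 11, 1 and 56 for Hba-a2. Control had 2 reads of Hba-a1, both in replicate 1 at 180 min, and none of Hba-a2 in its 12 libraries.

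Against a floor of 3 reads over the 3 control libraries, Hba-a2 was at least 17.5-fold higher in cDKO at 0 min, 16.3-fold at 60 min, 16.1-fold at 180 min and 25.8-fold at 540 min. Hba-a1 was at least 5.46-fold higher at 0 min, 12.4-fold at 60 min and 14.4-fold at 540 min. At 180 min its ratio was 11.8 (exact 95% interval 2.92 to 103). One cDKO library had no Hba-a1 read, and all 12 had at least 1 of Hba-a2.

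Most of these reads could not be assigned to one copy. Of 206 Hba-a2 reads in cDKO 205 were multimapping (99.5%, exact 95% interval 97.3 to 99.99), as were 83 of 110 Hba-a1 reads (75.5%, 66.3 to 83.2) and both control reads of Hba-a1. In the cDKO libraries with at least 10 reads, the shares were 99.5% and 82.1%. The values of the separate alpha-globins are uncertain for that reason. Hbb-bt had 318 times the summed reads of both alpha-globins over the 12 cDKO libraries, and 142 to 2810 times in the single libraries. Per 100 bases of 3′UTR interval the ratio was 240 over the 12 libraries and 107 to 2070 in the single libraries.

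The globin promoters are shown because one beta-globin was abundant while its neighbour was not. RefSeq windows of GRCm38.p6, from 250 bases before to 50 after the start, were found for 8 of the 10 genes. Those of Hbb-bt and Hbb-bs shared 71.3% of aligned bases, and those of Hba-a1 and Hba-a2 98.0%. The windows below run 5′ to 3′ on the gene's strand and cover 30 bases around the CCAAT word of that strand nearest the start, with CCAAT and any CACCC on the same strand in capitals. They lie at chr7:103813991-103814020 and chr7:103827997-103828026 (minus strand) and at chr11:32283562-32283591 and chr11:32296379-32296408 (plus strand), in the order given.
Hbb-bt: cagggtaaCACCCtggcattggCCAATctg
Hbb-bs: tagagccaCACCCtggtaagggCCAATctg
Hba-a1: gggtagagcaagcacaaaccagCCAATgag
Hba-a2: gggtagagcaagcacaaaccagCCAATgag

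Closer to the start, each of the 4 globin promoters held the word ATATAA, of the kind that binds the general transcription machinery, in capitals below. These windows lie at chr7:103813935-103813964 and chr7:103827941-103827970 (minus strand) and at chr11:32283632-32283661 and chr11:32296449-32296478 (plus strand).
Hbb-bt: ccagcattgggtATATAAagctgagcaggg
Hbb-bs: ccagggcagagcATATAAggtgaggtagga
Hba-a1: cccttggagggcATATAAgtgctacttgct
Hba-a2: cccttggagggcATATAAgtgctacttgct

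Matches were sought on both strands for CACCC, the core of the site that KLF1 binds, for CCAAT and ATATAA, and for the words bound by GATA factors. Those GATA words were AGATAA, its variant TGATAA, and the forms of both that end in G, which are AGATAG for the former and TGATAG for the latter. The first 2 words, CACCC and CCAAT, can overlap by their shared letters. Among 32851 promoter windows of the same length, 57.5% held CACCC, 37.4% CCAAT, 9.82% ATATAA and 29.8% a GATA word. CACCC was present in all 8 windows of the set, with 3 matches in Hbb-bt and 1 in Hbb-bs. ATATAA was present in the 4 globin windows and in none of Gata1, Klf1, Epor and Alas2. A GATA word was present in 6 of the 8 windows, all but those of Hbb-bt and Gata1. Thus the abundant Hbb-bt and the nearly unread Hbb-bs both held the CACCC word, the CCAAT word and the ATATAA word in these windows. A match describes letters only.

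The regulators, the receptor and the heme enzyme of the set were near or at 0. Gata1 (chrX:7959260-7959756) had 1 read in all, in replicate 1 of cDKO at 540 min. Epor (chr9:21958899-21959058), Alas2 (chrX:150570492-150570622) and Car1 (chr3:14766214-14766535) had none in the 24 libraries, which limits each to 0.0444 CPM over the control and 0.0488 CPM over the cDKO libraries. These are limits for reads in the 3′UTR intervals used, so that a transcript with another 3′ end would not be counted.

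Klf1 (chr8:84904940-84905295), which activates adult beta-globin in erythroid cells, was read in both genotypes. It had 55 reads in 10 of the 12 control libraries and 21 reads in 8 of the 12 cDKO libraries. The groups overlapped at all 4 times. At 540 min control had 16, 12 and 1 reads and cDKO 0, 1 and 3, a pooled ratio of cDKO to control of 0.157 (exact 95% interval 0.0400 to 0.446). At the other times this ratio was 0.638 to 0.826 with intervals that spanned 1. None of these intervals covers the spread between replicates, which in control at 540 min ran from 1 to 16 reads. No difference between genotypes is therefore read from them.

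Car2 (chr3:14900091-14900770, plus strand) was the other gene with many reads. It stood at 10.8, 4.32 and 10.6 CPM in replicates 1, 2 and 3 of control at 0 min, and at 84.0, 33.5 and 202 CPM in those of cDKO. At 540 min control stood at 10.2, 7.45 and 9.80 CPM and cDKO at 81.6, 35.7 and 184 CPM. The highest control library of all 12 held 13.9 CPM, below the lowest cDKO library at 33.5 CPM. The pooled ratio of cDKO to control was 11.6 (exact 95% interval 9.81 to 13.8) at 0 min, 13.2 (11.1 to 15.7) at 60 min, 12.1 (10.4 to 14.3) at 180 min and 11.02 (9.42 to 12.95) at 540 min. These intervals cover the counting of pooled reads only. They leave out the spread between replicates, which in cDKO ran from 33.5 to 202 CPM at 0 min.

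Only Hbb-bt and Car2 passed the filter on low counts in the comparison of genotypes, and both were higher in cDKO at every time. Over all genes tested with edgeR, 6.72% were called higher and 6.64% lower at 0 min (adjusted p under 0.05), 9.97% and 10.2% at 60 min, 9.1% and 9.78% at 180 min, and 8.89% and 10.4% at 540 min. As the genes were chosen on that contrast, nothing is read from their count.

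The level of these genes was also set out by replicate number within cDKO, a contrast that did not enter the choice. Hbb-bt averaged 1373 CPM over the 4 libraries of replicate 1, 1519 CPM in replicate 2 and 1998 CPM in replicate 3. Car2 averaged 90.9, 40.3 and 209 CPM, Hba-a1 1.79, 0.271 and 3.24 CPM, and Hba-a2 3.19, 0.688 and 6.21 CPM. Replicate 3 was the highest for all 4 genes, and replicate 2 the lowest for all but Hbb-bt. In control, Car2 averaged 9.21, 9.04 and 10.0 CPM.

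An edgeR quasi-likelihood F test of the replicate number over the 12 cDKO libraries, with chase time as a factor and Benjamini-Hochberg adjustment over 10463 genes, called all 4 of these genes. The adjusted p was 3.1e-13 for Car2, 3.3e-07 for Hbb-bt, 0.0011 for Hba-a2 and 0.0022 for Hba-a1. Of all genes tested, 22.1% were called. The 4 libraries of one number may be one culture. The test then sets the spread between cultures against that within them, and it says that libraries of one number had like levels, not that the replicates differed beyond the usual spread of cultures. With multimapping reads removed, the alpha-globins no longer passed the filter and the count was 2. Replicate 3 was also the replicate with the lowest library-wide conversion rate, and the part of that difference in these levels was not tested.

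**Figure D2:**
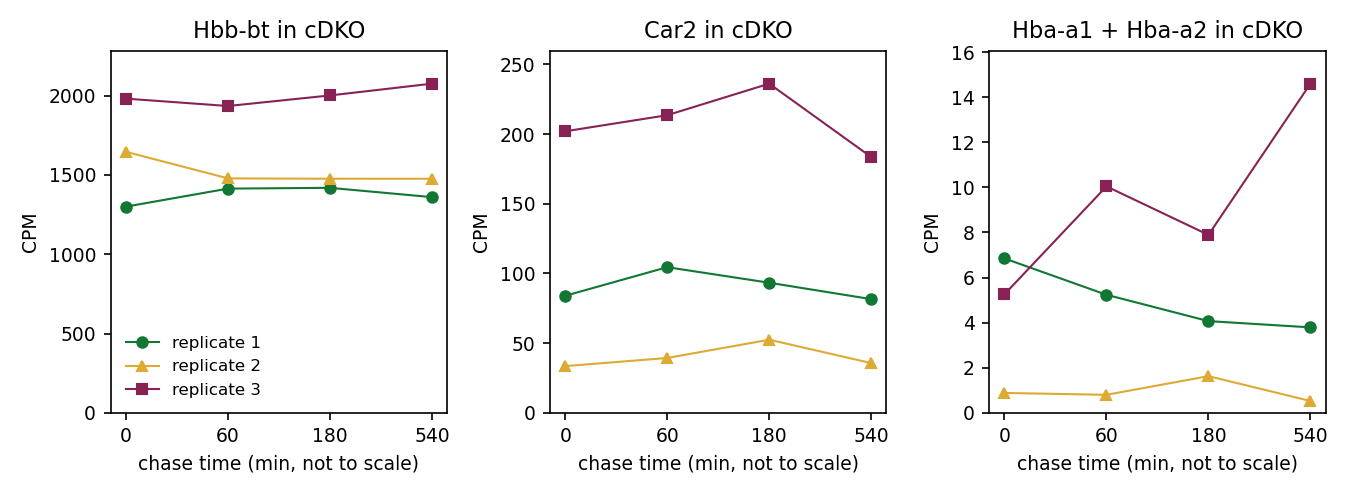
CPM of Hbb-bt, Car2 and the sum of Hba-a1 and Hba-a2 in the 12 cDKO libraries by chase time (min, evenly spaced), with 1 line per replicate number. Hbb-bt and Car2 are highest in replicate 3 at each time, and both differ more between replicate numbers than between times.

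No gene of the set was called for a change in level over the chase. Between 540 and 0 min in cDKO the log2 difference was -0.04 (SE 0.20, edgeR adjusted p = 0.97) for Hbb-bt, -0.11 (SE 0.69, adjusted p = 0.98) for Car2 and 0.28 (SE 1.16, adjusted p = 0.97) for Hba-a2. In control it was 0.04 (SE 0.33, adjusted p = 0.95) for Car2. Of the 3 genes tested in cDKO and the 1 in control, edgeR called 0, with 0 at an unadjusted p under 0.05. DESeq2 called 0 of 2 in cDKO, where it gave Hba-a2 no adjusted p, and 0 of 1 in control. Over all genes, edgeR called 0.117% in cDKO and 16.2% in control. With replicate numbers entered as a block, the SE for Hbb-bt in cDKO was 0.08.

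Hbb-bt kept most of its conversions over the chase. Its rate at 0 min was 0.319%, 0.442% and 0.259% in replicates 1, 2 and 3 of cDKO, and at 540 min 0.244%, 0.320% and 0.242%. In each replicate the later value was the lower one, with 76.3%, 72.3% and 93.3% of the 0 min rate left. Over the whole library 23.1%, 24.8% and 29.9% was left. The 0 min mean of 0.340 ± 0.0933% (SD, n = 3) was followed by 0.347 ± 0.0716% at 60 min, 0.335 ± 0.0441% at 180 min and 0.268 ± 0.0444% at 540 min. Only 1.25% of 8469 genes had a lower 0 min rate in cDKO, where the median gene had 0.820%.

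The edgeR slope of Hbb-bt conversions was -0.04 on the log2 scale per hour (SE 0.03, adjusted p = 0.13), against a median of -0.33 over 8469 genes, of which 2.0% had a slope nearer to 0 or above it. Replicate numbers of cDKO deviated together between 0 and 540 min. With the number as a block the slope was -0.04 (SE 0.01) and was called (adjusted p = 0.0079). Without a block it was called when replicate 3 was left out (-0.05, SE 0.02, adjusted p = 0.015), and not without replicate 1 or replicate 2 (adjusted p = 0.34 for each) or without the 540 min libraries (adjusted p = 0.94).

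A single exponential gave Hbb-bt a half-life of 1815 min in cDKO, longer than the chase itself. It was longer than that of 97.5% of 8469 genes, whose median was 235 min. Fits to the libraries of one replicate number gave 1722 min, 1097 min and, in replicate 3, the upper limit of 10000 min. Without the 540 min libraries the fit reached the upper limit, so that the value rests on the last time point. Without replicate 2 it was 3198 min. All libraries came from labelled cells, so the T-to-C background without label was not measured. With a background of 0.05% subtracted, the half-life of Hbb-bt in cDKO was 1527 min. Other backgrounds were not tested, and the rank among genes was not recomputed with the subtraction.

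Few conversions were available for Hbb-bt in control and for the alpha-globins. Control held 1 conversion in 821 covered T positions of Hbb-bt (0.122%, exact 95% interval 0.0031 to 0.677), which allows no rate per time. In cDKO, Hba-a1 had 5 conversions in 1692 positions (0.296%, 0.0960 to 0.688) and Hba-a2 had 12 in 3812 (0.315%, 0.163 to 0.549), pooled over the chase. Both intervals held the pooled rate of Hbb-bt (0.318%, 0.310 to 0.326) and the library-wide rate of 0.515%. Klf1 had 12 conversions in 903 positions in control and 1 in 414 in cDKO. None of these genes had the coverage for a half-life.

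Car2 was the only gene of the set with a decay measured in both genotypes. Its rate in control was 2.09%, 2.12% and 2.59% at 0 min and 0.872%, 0.362% and 0.470% at 540 min. In cDKO it was 0.794%, 1.08% and 0.403% at 0 min and 0.277%, 0.404% and 0.183% at 540 min. All replicates of both genotypes ended below their starting rate. The slope was -0.22 on the log2 scale per hour in control (SE 0.05, edgeR adjusted p = 0.00048) and -0.18 in cDKO (SE 0.04, adjusted p = 8.8e-05), against all-gene medians of -0.41 and -0.33. Of all genes, 97.4% were called for a loss of conversions over the chase in control and 92.6% in cDKO.

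The Car2 slopes differed by 0.05 on the log2 scale per hour (cDKO minus control, SE 0.06, 95% interval -0.08 to 0.18), and this was not called (edgeR interaction, adjusted p = 0.72, unadjusted p = 0.45). Over all genes 0.13% were called for that interaction. Car2 had a fitted half-life of 223 min among control libraries (233, 239 and 202 min in the replicates) and of 447 min among those of cDKO (340, 385 and 1096 min). The study's limit on the spread of normalised 0 min rates was not applied here. Car2 in cDKO, with an SD of 0.449, lay above that limit. Its mean rate in cDKO was 112% of the 0 min mean at 60 min, and in replicate 3 it went from 0.403% to 0.747%. The difference in fitted half-life thus came beside a test of the slopes that did not reach the threshold. Without the 540 min libraries, Car2 was called in neither genotype (adjusted p = 0.055 in control and 0.36 in cDKO).

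**Figure D3:**
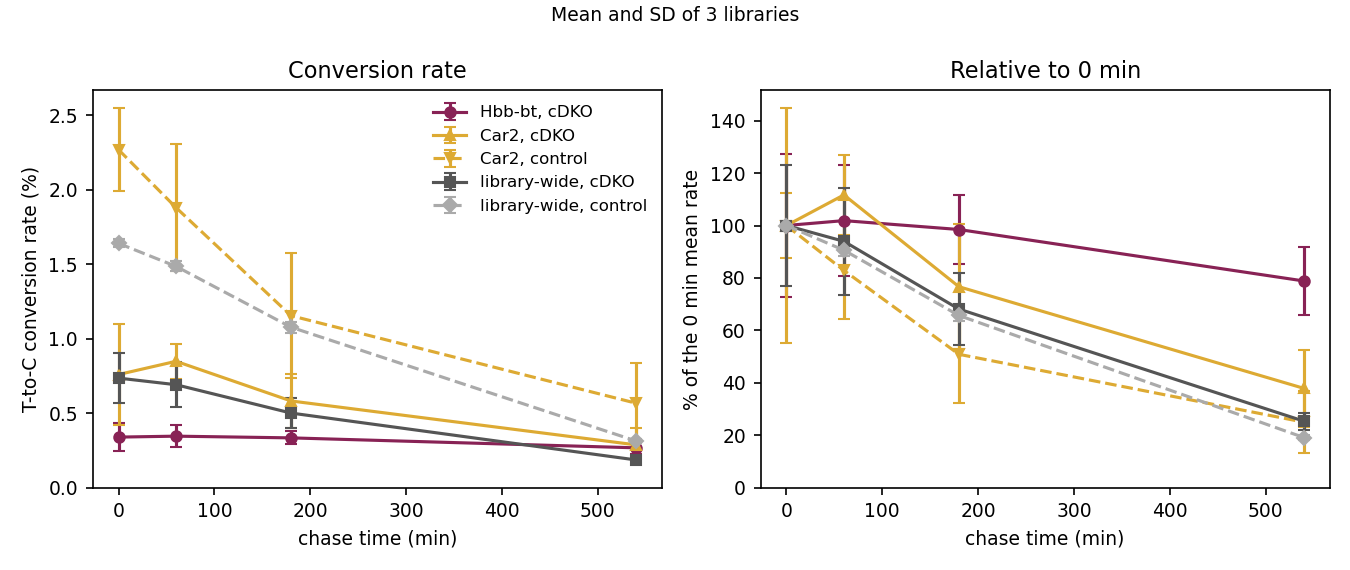
T-to-C conversion rate (%, left) and the same as a share of the 0 min mean (right) against chase time in min, for Hbb-bt in cDKO and for Car2 and the whole library in both genotypes. Points are means of 3 libraries and bars are SD. Hbb-bt keeps 78.9% of its mean 0 min rate at 540 min, the whole cDKO library 25.4%.

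Other genes of erythroid biology were set beside these, from 6 lists and a list of other globins that together held 103 genes. These lists, and the marker lists further below, were chosen with earlier results of these data known. Their calls are therefore a description and no independent support. The tables held 98 of them. The edgeR test covered 65 at 0 min and 64 at each later time. Of these, 8 were called higher and 2 lower at 0 min, 12 and 6 at 60 min, 9 and 8 at 180 min, and 10 and 8 at 540 min. That was 15.4%, 28.1%, 26.6% and 28.1% of the list genes tested. Of all genes tested, 6.72% were called higher and 6.64% lower at 0 min, and 9.97% and 10.2% at 60 min. At 180 min these shares were 9.1% and 9.78%, and at 540 min 8.89% and 10.4%. The median log2 difference of the list genes was -0.05, -0.04, 0.02 and -0.03 in order of time, and that of all genes lay between 0.00 and 0.01. Counts at 0 min fell to 3 without any 1 of the control replicates and rose to 20 without cDKO replicate 2. At 180 min they fell to 11 without control replicate 1 or 2, and at 540 min to 9 without control replicate 1.

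The 6 other globins in the tables, among them the embryonic Hbb-y, Hbb-bh1 and Hba-x, had no read in any library. Of 20 genes of the red cell membrane and cytoskeleton, 4 had enough reads to be tested. One of them, Icam4, an adhesion protein of red cells, was called higher at every time, from 1.20 ± 0.887 to 6.06 ± 1.995 CPM at 0 min (SD, n = 3, adjusted p = 0.035). Slc4a1, the anion exchanger of the red cell membrane, and Epb42, a protein of the membrane skeleton, had no read in any library.

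Of all genes tested for genotype, 31.3% were called at 1 or more of the 4 times, in either direction. Of 13 genes of heme synthesis, all tested, 2 were called at some time. Abcb10, a mitochondrial transporter needed for heme, was called higher at 60 and 540 min (log2 0.47 and 0.54, edgeR adjusted p = 0.012 and 0.0085). Alas1, the form of the first enzyme that most cells use, was called lower at 60 and 180 min (log2 -0.43 and -0.49, adjusted p = 0.018 and 0.011). The other 11 genes were called at no time. In the list of iron uptake and storage, 5 of 15 genes were called at some time. Ftl1, the ferritin light chain, was lower at all 4 times, with log2 differences from -0.68 to -0.40 (adjusted p from 0.0014 to 0.015).

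Also in the iron list, Blvrb, a biliverdin reductase of red cells, was lower at 60 and 540 min (log2 -1.98 and -1.23, adjusted p = 0.0032 and 0.013). The mitochondrial iron carrier Slc25a28 was higher at 0 and 60 min (log2 0.61 and 0.38, adjusted p = 0.023 and 0.027). Its relative Slc25a37, the carrier that erythroid cells use, was lower at 180 min (log2 -0.39, adjusted p = 0.016). The 2 mitochondrial carriers were thus called in opposite directions, at different times.

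Of 16 transcription factors named for erythroid biology, 11 were tested and 6 were called at some time. Gata2, a factor of blood progenitors and mast cells that GATA1 displaces in erythroid maturation, was 3.95 ± 2.02 CPM in control and 104 ± 43.4 CPM in cDKO at 0 min (SD, n = 3), and its log2 difference was 3.70 to 4.69 over the 4 times (edgeR adjusted p from 6.4e-06 to 1.7e-04). Zfpm1, the cofactor FOG1 of GATA proteins, was higher by 2.82 to 3.67. The corepressor Cbfa2t3 was higher by 0.40 to 0.74, also at all 4 times. E2f2, a cell cycle factor of late erythroblasts, was called higher at 0, 60 and 180 min (log2 0.63 to 0.78). Ikzf1, which encodes the blood cell factor Ikaros, was called as often but lower, at 60, 180 and 540 min (log2 -0.37, -0.33 and -0.67, adjusted p = 0.019, 0.029 and 3.6e-04). Tal1 was called higher at 0 min alone (log2 2.19, edgeR adjusted p = 0.046). At the later times its log2 difference was 1.85 to 2.73 and was not called (adjusted p from 0.052 to 0.10). Zfpm1, Gata2 and Tal1 moved in the same direction as Hbb-bt, while Gata1 itself had 1 read.

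Among 13 genes of the list for erythropoietin signalling, 12 were tested and 10 called at some time, in both directions. Csf2rb, the shared beta chain of the IL-3 receptor, was higher at all 4 times (log2 0.81 to 1.12, edgeR adjusted p from 0.0025 to 0.0098). Bcl2l1, a survival gene downstream of STAT5, was higher at 60, 180 and 540 min (log2 0.49 to 0.81), and Stat5a at 60 and 540 min (log2 0.81 and 0.61). Socs3, a feedback inhibitor of cytokine signalling, was lower at 60, 180 and 540 min (log2 -1.81 to -1.11). None of these genes acts in erythropoietin signalling alone, and the receptor gene Epor had no read.

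The list of erythroid maturation had 10 of its 16 genes tested and 4 called at some time. Ube2l6, a conjugating enzyme of the ubiquitin family, was lower at all 4 times (log2 -3.88 to -2.50, edgeR adjusted p from 0.0054 to 0.039). The antioxidant enzymes Prdx2 and Cat were called at 540 min, Prdx2 higher (log2 0.37) and Cat lower (log2 -0.35). Bnip3l, which clears mitochondria in reticulocytes, was lower at 180 min (log2 -0.26, adjusted p = 0.049). Hemgn, a nuclear protein of erythroblasts, had 1 read in all.

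**Figure D4:**
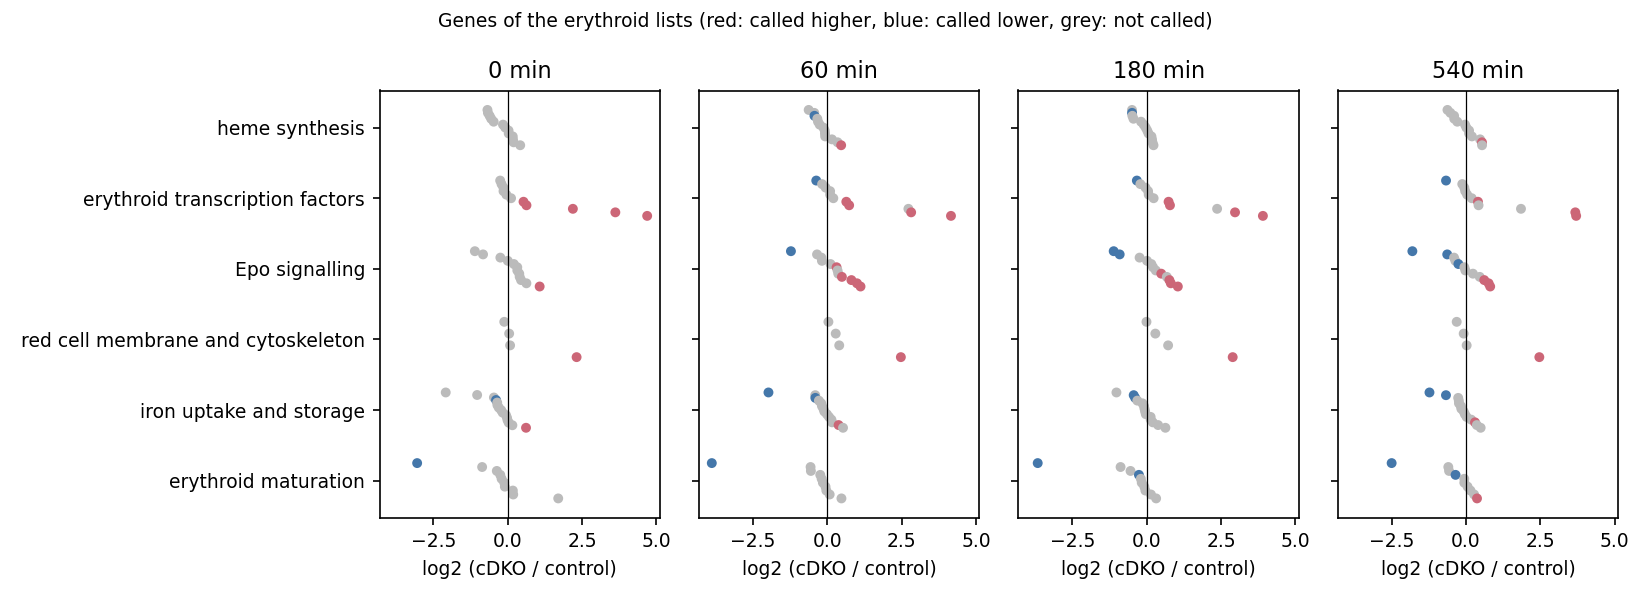
Log2 ratio of cDKO to control of each tested gene in 6 erythroid lists at the 4 chase times, with the 10 selected genes left out. Red points were called higher and blue points lower by edgeR, and grey points were not called. Most points lie near 0. Gata2, Zfpm1, Tal1 and Icam4 are among those farther to the right, and Ube2l6 is among those farther to the left.

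Some markers of other blood cells differed between genotypes too. Of all genes tested, 31.3% were called at some time, in either direction. The share of all genes called at all 4 times was not counted, so the counts at all 4 times below have no such share beside them. Of 12 mast cell and basophil markers, 6 were tested and 3 called higher at all 4 times (Cpa3, Hdc and Gata2, the last also in the transcription factor list). The sum of the 12 markers was 43.4 to 60.2 CPM in control and 161 to 353 CPM in cDKO. The other 3 tested genes, Mcpt8, Ms4a2 and Mitf, were called at no time and overlapped between genotypes. Mcpt8 stood at 6.26 to 18.8 CPM in control and 6.30 to 16.5 CPM in cDKO. For Ms4a2 these ranges were 3.41 to 11.3 and 3.27 to 10.2 CPM, and for Mitf 17.2 to 31.7 and 9.88 to 38.9 CPM. Cpa3, a mast cell protease, had no read in control and 47.3 to 80.8 CPM in cDKO, while Mcpt4, Tpsab1, Tpsb2, Cma1 and Fcer1a had no read anywhere. Of 9 macrophage markers, 2 were tested and called higher at all 4 times (Adgre1 and Vcam1). The 9 markers summed to 28.99 to 62.1 CPM in control and 340 to 1019 CPM in cDKO, where the other 7 had no read. In control, Mrc1 had 37 reads, C1qb 15, C1qc 3 and C1qa 2, so that the higher sum rests on Adgre1 and Vcam1 alone.

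Neutrophil and monocyte markers summed to 11106 to 12559 CPM in control and 5056 to 7278 CPM in cDKO. Of 10 tested, 9 were called at some time, 6 of them lower at all 4 times and 1, Cebpe, higher at all 4. The sum of the megakaryocyte markers overlapped between genotypes, at 15.2 to 36.4 CPM in control and 21.97 to 49.3 CPM in cDKO, with 1 of 3 tested genes called higher. Single genes of that list went in opposite directions. Itga2b stood at 0 to 1.80 CPM in control and 5.49 to 22.1 CPM in cDKO. Gp9 had 112 reads in control and 11 in cDKO, and Pf4 had 192 and 127. Fetal hepatocyte markers summed to 51.1 to 83.7 CPM in control and 26.9 to 41.6 CPM in cDKO, and 6 of the 10, among them Apoa1 and Ttr, had no read. Most of the sum was Trf, with 4101 reads in control and 1510 in cDKO, whereas Afp had 132 and 350. Of this list, 1 gene was called higher and 1 lower at 0, 60 and 180 min, and 1 lower at 540 min. The part of any of these cell types in the levels of Hbb-bt and Car2 was not tested.

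**Figure D5:**
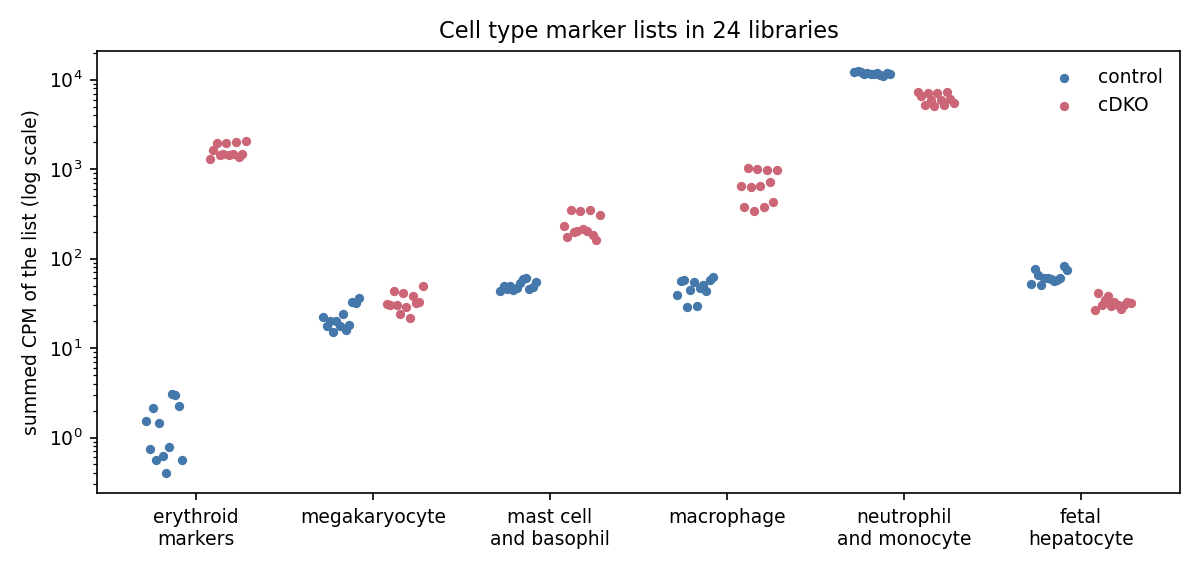
Summed CPM of 6 cell type marker lists in each of the 24 libraries, on a log scale, control in blue and cDKO in red. The erythroid list in cDKO is almost entirely Hbb-bt, and of the 6 lists only the megakaryocyte list overlaps between genotypes.

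The genes most like the globins within cDKO were found by Pearson's r of log2(CPM + 1) with the sum of the 4 adult globins over the 12 cDKO libraries, among 8269 genes with a mean of at least 10 CPM. They were Impdh1 (r = 0.96), Papss2 (0.92), Dnmt3l (0.92), Oaf (0.91) and Cpa3 (0.90). The 12 libraries shared 3 replicate numbers and 4 times, so that these values largely follow the differences between replicates 1, 2 and 3 given above. Papss2 stood at 155 to 327 CPM in cDKO and at most at 36.7 CPM in control, and Impdh1 at 74.0 to 114 and at most 80.4 CPM.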

How the data were processed

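The 24 SLAM-seq libraries were 3 replicates of 2 genotypes at 4 chase times, grouped by the labels, which give chase time as the batch. The authors sequenced 3′-end libraries (85-base single reads, 16 PCR cycles) and tabulated conversions over mm10 3′UTR intervals with SlamDunk (0.4.3). The deposited tables hold whole-number counts of reads, multimapping reads, covered T positions and conversions per interval, with a CPM scaled to filtered reads and a conversion rate as a fraction of covered T positions, both recomputed here from the counts. In all, 99.18% of 39419 lines matched a RefSeq GRCm38.p6 symbol. Of overlapping intervals of a gene the longest was kept. The genes and lists were chosen with earlier results of these data known.

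Abundance was tested with edgeR (4.0.16, quasi-likelihood, TMM, filterByExpr) and DESeq2 (1.42.0), and conversions with edgeR and log coverage as offset (at least 100 positions in each library and 50 conversions in all). All p-values were adjusted by Benjamini-Hochberg over all genes tested. Half-lives were least-squares exponentials of the rate over the genotype's mean at 0 min, bounded at 1 and 10000 min. All members were named, and of each list the 4 genes called at most times, with some others. Scripts were tested on simulated data. Replicate numbers paired the libraries over the chase in cDKO (r of deviations 0.26 to 0.62 between 0 and 540 min).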

Additional observations from a re-analysis of the deposited data

How the results depend on the processing

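The counts and half-lives were recomputed under alternatives. With a replicate block, 2 of the selected genes instead of 1 were called for loss of conversions in cDKO, and the block changed no other call among them. Without the 540 min libraries that count was 0 in cDKO and 0 in control, and with coverage of at least 1000 positions it was 0 in control, where Car2 was no longer tested. Without multimapping reads, 2 genes were called between replicate numbers. The Hbb-bt half-life reached the limit of 10000 min without the 540 min libraries. Leaving out 1 replicate at a time gave 3 to 20 list genes at 0 min, 13 to 24 at 60 min, 11 to 21 at 180 min and 9 to 17 at 540 min, 1 to 2 genes with loss of conversions in cDKO, and half-lives of 1307 to 3198 min for Hbb-bt and 365 to 514 min for Car2. Replicate numbers did not pair the libraries of control over the chase (r of deviations -0.01 to 0.07) or the genotypes (-0.05 to 0.05), and with the block 8, 18, 16 and 12 list genes were called at the 4 times. The cause of these shifts was not tested. The near-absent genes are limited by depth, at 3 reads over 12 libraries.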
